A study of Homo sapiens with 16 samples.

Results

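Clone A7 is a line of A375 human melanoma cells that carries a transfected human catalase cDNA, and its RNA was compared here with that of both control lines over all 33297 transcript clusters of Affymetrix Human Gene 1.0 ST arrays. The members were the 4 arrays labelled as A375-A7 of 16 in the series, and the reference was the average of the group means of A375 (4 arrays) and A375-PCDNA3 (4 arrays). A375 cells were not transfected. PCDNA3 cells are A375 cells with the empty pcDNA3 vector, and A7 was transfected with pcDNA3 holding the catalase cDNA and derived by clonal dilution. G10, another catalase-transfected A375 clone with 4 arrays, was not compared with control here, but its arrays entered the estimate of spread behind the p values. The transfected lines PCDNA3, A7 and G10 were selected in 1500 µg/ml and kept in 700 µg/ml geneticin, and all lines were harvested at subconfluence. A7 is therefore a single clone, and its 4 arrays, described as biological replicates, do not sample other clones. What the catalase cDNA and what the derivation from 1 cell contributed to a difference cannot be told apart. Catalase breaks hydrogen peroxide down to water and oxygen inside peroxisomes. Melanocytes make pigment in melanosomes through the enzymes TYR, TYRP1 and DCT under control of the transcription factor MITF, and A375 is a line with little pigment. Some genes of the melanocyte lineage were looked at as well. MITF had a mean of 10.29 in control and 10.56 in A7, SOX10 of 9.44 and 9.56, and S100B of 10.25 and 10.73. All were far above the level of unexpressed genes. They were chosen after their values were seen, and they mark the lineage, not the A375 line. The lineage markers TYRP1 and TYR lay near that level in A375, with values given further on.

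Values are log2 intensities after RMA, so a difference of 1 is a doubling. The level of unexpressed genes was set from olfactory receptors, which few tissues other than the nose transcribe, as the 95th percentile of their cluster means, 5.17. Where the mean of 1 side was below it, the change is written as a lower limit (at least), computed with the arrays of the dimmer side set to no less than 5.17, and the measured difference follows. Array medians lay between 5.85 and 5.97. A7 arrays correlated with each other at r = 0.987 to 0.995 over all clusters, arrays within a control line at 0.990 to 0.993, and A7 with control arrays at 0.985 to 0.991. Within A7, the deviations from the group mean of arrays 1 and 2 correlated at 0.08 and those of arrays 3 and 4 at 0.17, while pairs across these correlated at -0.66 to -0.48. Deviations within a group cancel out, so unrelated arrays would correlate negatively. Arrays 1 and 2, and arrays 3 and 4, were thus more alike than pairs across them. The p values given here treat the 4 A7 arrays as independent and make no allowance for this likeness. p values are those of limma, adjusted over all clusters (Benjamini-Hochberg).

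CAT, the gene for catalase, was the first gene examined because the clone was made to carry it. CAT measured 9.02, 8.92, 9.12 and 9.02 in the A7 arrays, 8.64, 9.03, 8.65 and 8.62 in A375 and 8.51, 8.51, 8.53 and 8.71 in PCDNA3. The A7 arrays were high but overlapped with array 2 of A375, and 1 of the 4 lay above all 8 control arrays. The difference was 0.37 (standard error 0.13), a 1.29-fold higher level, with adjusted p = 0.124 in limma. An exact two-sided permutation test of the 4 A7 arrays against the 8 control arrays gave p = 0.0162 over 495 arrangements, where 0.00404 was the smallest possible. With the 12 arrays of A7 and control alone the same difference passed in limma (adjusted p = 0.0207), and so it did without replicate 3 of clone G10 (adjusted p = 0.0216), in which CAT was 7.74. Whether the probes of the CAT cluster lie in the transfected cDNA is not given in the sources used here.

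In limma, 1895 clusters differed between A7 and control at an adjusted p under 0.05, 5.69% of all tested, of which 1153 were higher (3.46%) and 742 lower (2.23%). The arrays measured RNA of whole cultures, so fewer cells that express a gene and less RNA per cell cannot be told apart. Most changes were small, with a median size of 0.53 among the higher and 0.49 among the lower clusters. In 849 of the higher clusters every A7 array lay above every control array, and in 518 of the lower clusters every A7 array lay below. Over all clusters, called or not, the A7 and control arrays did not overlap in 1986 (5.96%). Changes of at least 1 log2 unit with an adjusted p under 0.001 numbered 139 upward (0.417%) and 39 downward (0.117%). A control mean below the unexpressed level and an A7 mean above it was found in 133 of the higher clusters, and the reverse in 52 of the lower. Without replicate 1 of A7, 656 clusters were higher and 417 lower. Without replicate 2, 717 were higher, and without replicate 3, 454 were lower.

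**Figure D1:**
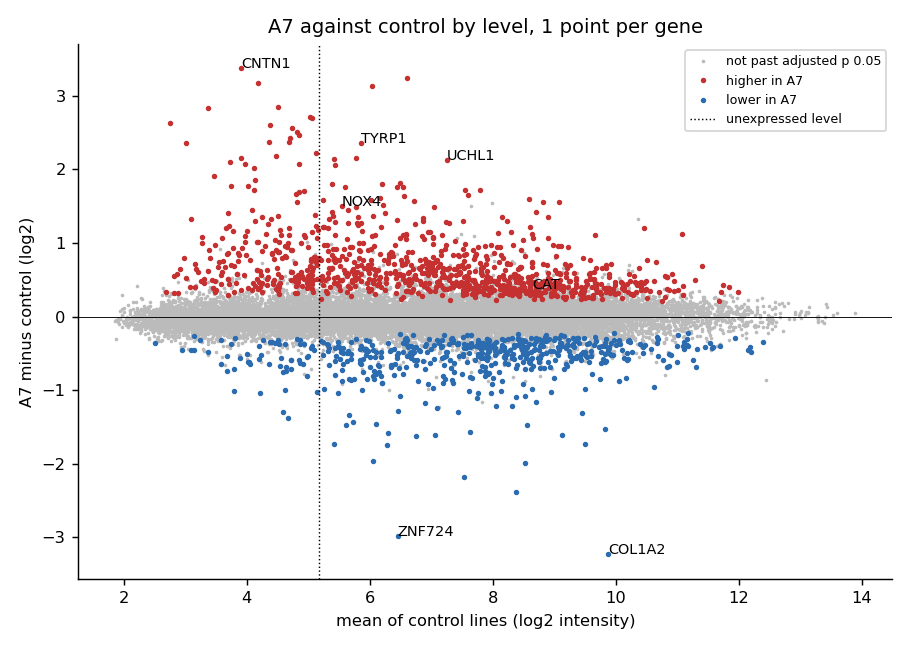
Difference between A7 and control (log2, vertical) against the control mean (log2 intensity, horizontal), with 1 point for each of the 18417 genes that have a cluster of their own. Genes past the adjusted p of 0.05 are coloured, the dotted line is the unexpressed level of 5.17, and most of the 15 largest rises start below that line.

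The 2 control lines differed little from each other. PCDNA3 vs A375 gave 41 clusters in limma (0.123%), while A7 vs A375 alone gave 1388 (4.17%) and A7 vs PCDNA3 alone gave 1573 (4.72%). Both of these use the same A7 arrays. Of the 1153 higher clusters, 504 passed against each line alone, as did 233 of the 742 lower clusters. All clusters called had the same sign against both lines, which their selection on the average of both lines makes likely. A7 vs the other catalase clone, G10, gave 5065 clusters (15.2%).

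The largest rise was that of CNTN1. CNTN1, a contactin of neural cell adhesion, measured 7.44, 7.69, 7.29 and 6.71 in A7, 4.01, 3.93, 3.97 and 4.39 in A375 and 3.37, 3.91, 4.24 and 3.48 in PCDNA3. CNTN1 thus rose from below the unexpressed level, with no overlap between the groups. The rise was at least 2.12 (measured 3.37 with a standard error of 0.40, adjusted p = 8.49e-05). CDCA7L, a regulator that binds MYC, measured 9.81, 9.81, 10.02 and 9.72 in A7 against 6.65, 6.62, 6.40 and 6.71 in A375 and 6.28, 6.98, 6.45 and 6.72 in PCDNA3. Its rise of 3.24 (standard error 0.13, adjusted p = 1.3e-09) started from an expressed level, and its mean in G10 was 3.81, which is below the unexpressed level. MEGF10, an engulfment and adhesion receptor, rose by 3.13 (adjusted p = 9.96e-08) from 6.04 to 9.17. LAMA2, a laminin chain of basement membranes and close behind the 15 largest rises, measured 7.05, 7.45, 6.89 and 6.80 in A7 and lay between 4.51 and 4.76 in the 8 control arrays. LAMA2 rose by at least 1.88 (measured 2.37, adjusted p = 1.3e-09).

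Others of the 15 largest rises encode membrane, signalling and gene-regulatory proteins. CLIC2, an intracellular chloride channel protein, rose by at least 2.18 (measured 3.17). LIMCH1, a regulator of actomyosin, rose by at least 2.19 (measured 2.84). SLC17A6, a vesicular glutamate transporter, rose by at least 2.43 (measured 2.70). ENTPD1, the ectonucleotidase CD39, rose by at least 2.12 (measured 2.55). MARK1, a kinase of microtubule-associated proteins, rose by at least 2.15 (measured 2.50), and its G10 mean of 7.28 was close to its A7 mean of 7.32. Among transcription factors, EHF rose by at least 2.10 (measured 2.46), KLF12 by at least 1.81 (measured 2.60) and MECOM by at least 1.57 (measured 2.37). MECOM has another cluster that was not called, with a difference of -0.02. EPB41L4A, SH3BGRL2, ANO5 and CES5A completed the 15, all from control means below 5.17 and with rises of at least 1.04, 2.59, 0.22 and 1.96 (measured 2.83, 2.70, 2.63 and 2.42). The adjusted p of these 12 genes was at most 2.37e-05, that of CES5A.

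**Figure D2:**
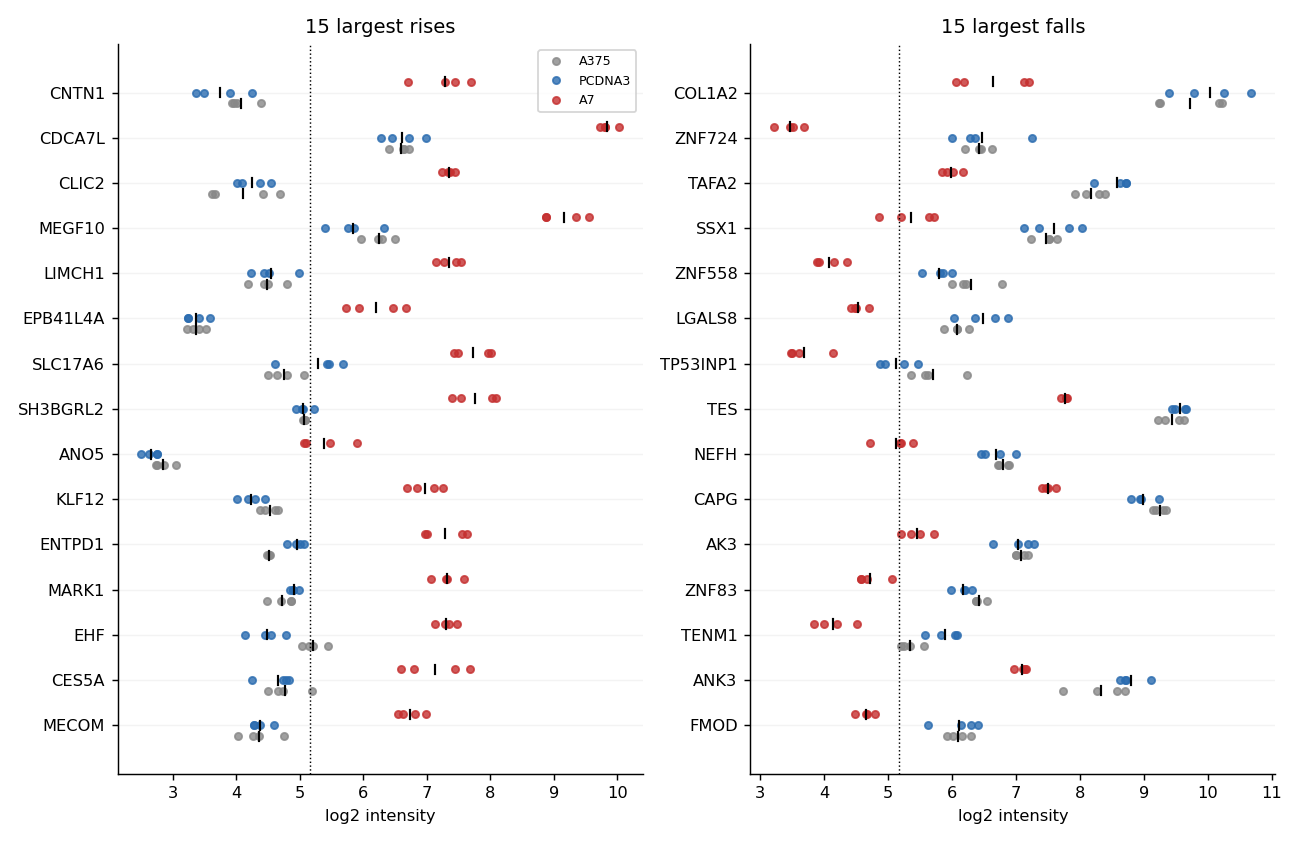
Log2 intensity (horizontal) of the 15 genes with the largest rises (left) and the 15 with the largest falls (right) in A7, with 1 point per array, 4 arrays per line and a black tick at each mean. The dotted line is the unexpressed level, and the A7 points lie beyond all control points in every gene, as the choice of these genes required.

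The largest fall was that of COL1A2, which encodes part of the type I collagen fibre. COL1A2 measured 7.13, 7.20, 6.19 and 6.06 in A7, 10.23, 10.18, 9.26 and 9.24 in A375 and 9.79, 10.69, 9.40 and 10.25 in PCDNA3. The fall was -3.23 (standard error 0.27, adjusted p = 1.93e-06), and COL1A1, the partner chain, had means of 6.79 in control and 6.70 in A7 and did not pass (adjusted p = 0.605). Arrays 1 and 2 were above arrays 3 and 4 for COL1A2 in A7 and in A375, but not in PCDNA3. ZNF724, a zinc finger gene, fell by at least 1.29 (measured -2.98) and ZNF558 by at least 0.88 (measured -1.97), both to below the unexpressed level. The secreted neurokine TAFA2 (-2.39), the cancer-testis gene SSX1 (-2.18), the focal adhesion protein TES (-1.73) and the actin-capping protein CAPG (-1.61) fell as well. TP53INP1, a p53-induced stress protein, fell by at least 0.25 (measured -1.73). LGALS8, a galectin, fell by at least 1.11 (measured -1.75), and the matrix proteoglycan FMOD by at least 0.94 (measured -1.45). In G10, LGALS8 had a mean of 8.76 and FMOD of 10.12, above control in both. The mitochondrial kinase AK3 (-1.61) and the membrane-skeleton adaptor ANK3 (-1.47) also fell. The remaining genes of the 15 fell to below the unexpressed level, the neurofilament NEFH by at least 1.51 (measured -1.62), the teneurin TENM1 by at least 0.45 (measured -1.47) and ZNF83 by at least 1.13 (measured -1.58). All falls named here had an adjusted p of at most 0.000692, that of FMOD.

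Pigment genes were examined next, because TYRP1, TYR and MLANA are markers of melanocyte differentiation that the study named in A7. Being chosen on these arrays, those 3 are not independent evidence. By qPCR, on the RNA samples used for the arrays, the study also found TYRP1, CNTN1 and UCHL1 higher in A7. For TYRP1 it cites a higher protein level from a separate report. The promoters of TYRP1 and TYR each hold TCATGTG, the core of the M-box that MITF is known to bind, and are shown for that reason. They were read from RefSeq (GRCh38.p14), TYRP1 at chr9:12693185-12693301 on the plus strand and TYR at chr11:89177715-89177831 on the plus strand, with the M-box core in capitals.
TYRP1: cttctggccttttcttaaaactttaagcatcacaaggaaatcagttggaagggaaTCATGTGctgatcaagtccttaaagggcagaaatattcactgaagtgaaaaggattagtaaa
TYR: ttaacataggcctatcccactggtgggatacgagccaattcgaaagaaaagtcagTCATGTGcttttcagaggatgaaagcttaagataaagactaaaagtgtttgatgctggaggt
Read on both strands, TCATGTG was found in 2.92% of 35116 promoter windows of 300 bases. Of the 29 pigment list genes with a promoter in the table, 6 held it, and of the 5 such genes that rose, 3 held it (TYRP1, TYR and GPR143). The match is a description of letters and no measure of binding.

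TYRP1, which encodes a melanosomal enzyme, measured 8.47, 8.35, 8.0 and 8.03 in A7, 6.96, 6.31, 5.69 and 7.05 in PCDNA3 and 4.99, 5.49, 5.41 and 5.00 in A375. A7 lay above all control arrays, and PCDNA3 lay above A375. TYRP1 rose by 2.35 (standard error 0.20, adjusted p = 2.33e-06), by 2.99 against A375 alone and by 1.71 against PCDNA3 alone. TYR, the rate-limiting enzyme of melanin synthesis, measured 7.66, 7.65, 6.78 and 6.68 in A7, 5.23, 5.44, 4.74 and 5.16 in A375 and 6.33, 4.36, 5.28 and 6.58 in PCDNA3. The PCDNA3 arrays 1 and 4 were close to the lower A7 arrays. TYR rose by 1.81 (standard error 0.46, adjusted p = 0.0299), and its other cluster rose by 1.83 (adjusted p = 0.0122). MLANA, the melanosomal antigen MART-1, rose by 1.29 (standard error 0.34, adjusted p = 0.0358) to A7 values of 9.65, 9.89, 9.38 and 9.20. Against PCDNA3 alone neither TYR (adjusted p = 0.126) nor MLANA (adjusted p = 0.187) passed, and against A375 alone both did (0.0407 and 0.0343).

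In the list of pigment synthesis and melanosome genes, 6 of 35 rose and 1 fell, beside 4.95% higher and 2.99% lower of all 18417 genes with a cluster of their own. The median difference over the list was 0.22 and over all genes -0.01. The melanosomal transporter SLC45A2 rose by at least 0.27 (measured 0.81, adjusted p = 0.000222), the melanosomal receptor GPR143 by at least 0.31 (measured 0.44) and the trafficking gene HPS4 by 0.40. MC1R, the receptor for melanocyte-stimulating hormone, fell by 0.41 (adjusted p = 0.0224). PMEL, the fibril protein of melanosomes, had values of 8.94, 8.93, 8.67 and 8.60 in A7 and of 9.04, 6.98, 7.44 and 9.35 in PCDNA3, which overlapped (difference 1.09, adjusted p = 0.208). The other genes that the study named in this context did not pass, with differences of 0.31 for CITED1, 0.22 for ATP10A and 0.22 for OCA2. The study took them from signatures tested as whole gene sets, which is another measure than the limit for single genes used here. MITF (0.28, adjusted p = 0.511) and SOX10 (0.12, adjusted p = 0.611) did not pass either. Of 34 melanocyte and neural crest transcription factors, 2 rose (5.88%) and 4 fell (11.8%). The inhibitor of differentiation ID1 fell by 1.21, SNAI2 by 0.59, SNAI1 by 0.57 and SOX9 by 0.39, while MSX2 rose by 0.46. CDCA7L, which the list also counts and which was introduced above as a regulator that binds MYC, rose too. The call of ID1 was lost in 12 of 28 alternatives. SNAI1 and SNAI2 encode repressors of epithelial genes.

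**Figure D3:**
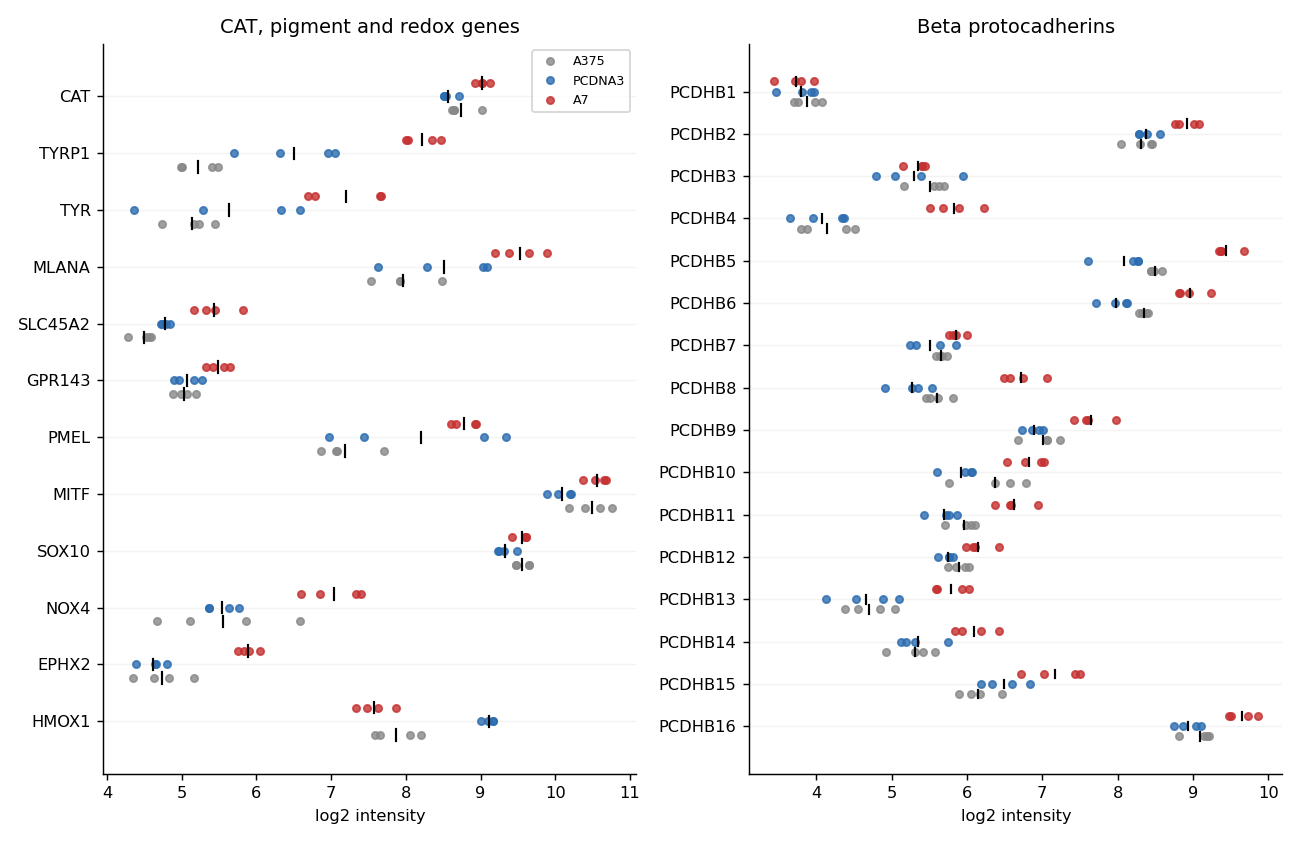
Log2 intensity (horizontal) of CAT, pigment and redox genes (left) and of the 16 beta protocadherins (right), with 1 point per array, 4 arrays per line and a black tick at each mean. TYRP1 separates the 3 lines, HMOX1 is highest in PCDNA3, and the A7 points of PCDHB4, PCDHB5 and PCDHB8 lie above all control points.

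The clustered beta protocadherins were, of the 41 lists, the one with the largest share of members called. These cadherin-related adhesion proteins of neurons lie side by side on chromosome 5, each with a promoter of its own. Their promoters share a stretch, and 3 of the genes that rose are shown with it in capitals. The windows are on the plus strand of GRCh38.p14 (RefSeq), PCDHB4 at chr5:141121679-141121798, PCDHB5 at chr5:141135135-141135205 and PCDHB13 at chr5:141213821-141213918.
PCDHB4: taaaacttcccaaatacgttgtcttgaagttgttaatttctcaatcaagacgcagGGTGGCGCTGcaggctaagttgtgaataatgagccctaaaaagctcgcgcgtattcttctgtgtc
PCDHB5: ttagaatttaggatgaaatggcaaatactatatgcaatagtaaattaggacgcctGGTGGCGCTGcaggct
PCDHB13: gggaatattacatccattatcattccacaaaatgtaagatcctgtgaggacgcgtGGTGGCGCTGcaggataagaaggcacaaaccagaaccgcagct
The letters GGTGGCGCTG were chosen as the 10 found in most of the family's promoters, 12 of 14, and read on both strands they occurred in 0.276% of all 35116 windows. They were present in 8 of the 9 risen members with a promoter in the table and in 4 of the 5 that were not called, so they did not set the risen members apart.

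Of 16 beta protocadherins measured, 11 rose and none fell in limma at the adjusted limit, with a median difference of 0.73. At an unadjusted p under 0.05, 14 were higher and 0 lower. PCDHB4 measured 5.68, 6.23, 5.90 and 5.51 in A7, 3.79, 4.51, 3.88 and 4.39 in A375 and 4.34, 3.96, 3.66 and 4.36 in PCDNA3, a rise of at least 0.66 (measured 1.72 with a standard error of 0.22, adjusted p = 0.000143). PCDHB8 rose by 1.29 (adjusted p = 4.35e-05), PCDHB5 by 1.15 (adjusted p = 8.85e-05) and PCDHB13 by at least 0.62 (measured 1.11). PCDHB6, PCDHB15, PCDHB11, PCDHB14, PCDHB9, PCDHB16 and PCDHB2 rose by 0.57 to 0.85. The 5 not called were PCDHB1, PCDHB3, PCDHB7, PCDHB10 and PCDHB12, with differences from -0.11 to 0.68. Members of this family are alike in sequence, so their separate values are uncertain, and the part of shared probes was not tested. In order along the chromosome, PCDHB4, PCDHB5, PCDHB6 and the pseudogene PCDHB17P formed a run of called neighbours, and so did PCDHB13, PCDHB14, PCDHB18P and PCDHB15. The rise of this family was not particular to A7 in the study. Its classification of these arrays listed many members, PCDHB5 and PCDHB8 among them, as higher in G10 than in control. PCDHB4 and PCDHB13 were not in that list.

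Other adhesion genes moved in both directions. Of 31 contactins and immunoglobulin adhesion molecules, 3 rose (9.68%, beside 4.95% of all genes) and 2 fell (6.45%, beside 2.99%). CNTN3 rose by at least 0.63 (measured 1.77) and NEGR1 by 0.91, while NRCAM was called lower with both means below the unexpressed level. NCAM1 fell by 0.37, a call lost in 13 of 28 alternatives (adjusted p up to 0.481). Among 28 cadherins and catenins, CDH7 rose by at least 0.26 (measured 1.30), CTNNB1, which encodes beta-catenin, by 0.43 and JUP by 0.42, and none fell in limma (1 at an unadjusted p under 0.05). Of 30 claudins and tight junction genes, 3 were lower (10.0%) and none higher in limma (4 lower and 0 higher at an unadjusted p under 0.05). CLDN20 fell by at least 0.31 (measured -1.04). Of 29 integrins, 2 rose (6.90%) and 3 fell (10.3%), with ITGA11 up by 0.63 and ITGA9, ITGB8 and ITGA5 lower. The call of ITGA9 was lost in 13 of 28 alternatives (adjusted p up to 0.733). Of the genes that the study listed for A7 under cell adhesion, 10 of the 10 with a cluster of their own rose, and under cell-cell signaling, 9 of 9. In each list 1 more gene had no such cluster, and both lists were chosen on these arrays. SYK, a tyrosine kinase in both lists, rose by 1.76.

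Matrix genes did not share a direction. Of 43 collagen genes, 4 were higher (9.30%, beside 4.95% of all genes) and 3 lower (6.98%, beside 2.99%). Besides COL1A2, COL5A2 fell by 0.62 and COL6A2 by 0.40, whereas the basement membrane collagen COL4A3 rose by 0.53 (adjusted p = 0.000728). The call of COL6A2 was lost in 13 of 28 alternatives. Of 27 laminin and basement membrane genes, 3 rose (11.1%) and 3 fell (11.1%). LAMB3 rose by 1.21 and CCDC80 by 1.05, while LAMB1 fell by 0.67 and NID1 by 0.68, the latter a call lost in 15 of 28 alternatives. MGP, an inhibitor of calcification, rose by 1.12 (adjusted p = 0.0022), and the collagen-binding LUM by 0.91. Among 47 matrix proteases and inhibitors, 6 rose (12.8%) and 2 fell (4.26%). MME, the membrane protease neprilysin, measured 7.43, 7.57, 7.46 and 7.55 in A7 and between 5.05 and 5.95 in control, a rise of 2.06 (standard error 0.14, adjusted p = 2.42e-07). MMP16 fell by 0.87 in its brighter cluster and by 0.90 in the other.

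Of 51 neuronal and neuroendocrine genes, 9 were higher (17.6%, beside 4.95% of all genes) and 6 lower (11.8%, beside 2.99%), with a median difference of -0.05. UCHL1, a neuronal deubiquitinase, measured 9.09, 8.74, 9.73 and 9.97 in A7, 7.42, 7.59, 7.28 and 7.24 in A375 and 6.96, 7.56, 6.97 and 7.03 in PCDNA3. Arrays 3 and 4 of A7 were the highest, and no control array reached A7. UCHL1 rose by 2.13 (standard error 0.20, adjusted p = 5.87e-06), and its G10 mean was 6.10. The amine oxidases MAOB and MAOA, neighbours on chromosome X whose reaction yields hydrogen peroxide, rose by 2.14 and by at least 1.25 (measured 1.38). The endocytic protein AMPH rose by at least 0.96 (measured 2.01), the neurofilament NEFL by 1.65, the acetylcholine receptor subunit CHRNA6 by 1.60 and the prohormone-processing CPE by 1.58. The neuropeptide gene TAC1 fell by 1.53, GAP43, a growth cone protein, by 1.29 and the granin-like VGF by 1.16. Of 74 axon guidance genes, 5 rose (6.76%) and 3 fell (4.05%), near the shares of all genes. SEMA5A rose by 1.72 (adjusted p = 0.000146), and SEMA7A and EFNB2 fell by 0.84 and 0.84.

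A list of hydrogen peroxide removal, superoxide dismutation and related redox enzymes held 31 genes. Of these, 3 rose (9.68%, beside 4.95% of all genes) and 1 fell (3.23%, beside 2.99%). The 3 were MSRA, MSRB3 and GSR, none of them a catalase, peroxidase or superoxide dismutase. The methionine sulfoxide reductase MSRA measured 7.69, 7.73, 7.65 and 7.62 in A7, 6.77, 6.75, 7.01 and 6.87 in A375 and 6.90, 7.38, 7.25 and 7.20 in PCDNA3, a rise of 0.65 (standard error 0.11, adjusted p = 0.00127). MSRB3 rose by 0.51 and GSR, glutathione reductase, by 0.30 (adjusted p = 0.0474), a call that was lost in 18 of 27 alternatives (adjusted p up to 0.189). Sulfiredoxin, SRXN1, fell by 0.44, a call lost in 14 of 28 alternatives (adjusted p up to 0.295). In the list of 26 genes of glutathione synthesis and transfer, which also holds EPHX2, 4 rose (15.4%) and 1 fell (3.85%). EPHX2, soluble epoxide hydrolase, rose by at least 0.72 (measured 1.2, adjusted p = 0.000166), the microsomal transferases MGST1 and MGST2 by 0.76 and 0.48, and GSTO1 by 0.38. GCLM, a subunit of the enzyme that starts glutathione synthesis, fell by 0.51, a call lost in 13 of 28 alternatives. Of the antioxidant genes that the study named for A7 on these arrays, 11 had a cluster of their own, and TXNRD3 did not. Of the 11, 6 rose. All 11 differences were positive, and 11 passed an unadjusted p under 0.05, which is not independent evidence. At the adjusted limit CAT, GSTM3 (0.43), MGST3 (0.22), GCLC (0.23) and NFE2L1 (0.19) did not pass. The study named these genes from a test of a whole gene set, which is another measure than this limit for single genes. MSRA, GSR and EPHX2 lie on the part of chromosome 8 described below, where 36.3% of genes were higher.

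NOX4, an oxidase that makes hydrogen peroxide, measured 7.33, 7.40, 6.85 and 6.59 in A7, 5.86, 6.58, 4.67 and 5.11 in A375 and 5.77, 5.36, 5.37 and 5.64 in PCDNA3. A7 lay above every control array, closely so for array 2 of A375. NOX4 rose by 1.5 (standard error 0.28, adjusted p = 0.00416). Of 30 regulators and targets of NRF2, the transcription factor of the oxidant response, none rose in limma at the adjusted limit and 6 fell, against 3 higher and 7 lower at an unadjusted p under 0.05. HMOX1, heme oxygenase 1, was the largest of them, and its fall of 0.91 against both lines was -1.53 against PCDNA3 (adjusted p = 0.00469) and -0.30 against A375 (adjusted p = 0.693). GCLM likewise passed against PCDNA3 alone (-0.81) and not against A375 alone (-0.20). AKR1C2 fell by 0.70, and it passed against A375 alone (-0.92, adjusted p = 0.0312) and not against PCDNA3 alone (-0.49, adjusted p = 0.303). Its call was lost in 15 of 28 alternatives. NQO1 (-0.10) and TXNRD1 (-0.19) did not pass. Of 41 peroxisome genes, 4 were higher (9.76%, beside 4.95% of all genes) and 1 lower (2.44%, beside 2.99%). Among them were the import receptor PEX5 (0.36) and the membrane protein PEX2 (-0.54).

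Zinc finger genes were more often lower than higher. Of 480 genes with a ZNF symbol, 44 fell, which is 9.17% beside 2.99% of all genes, and 6 rose, or 1.25% beside 4.95%. The median was -0.07. Besides ZNF724, ZNF558 and ZNF83, ZNF701 fell by at least 0.56 (measured -1.43). Zinc finger genes are alike in sequence and stand in clusters on chromosome 19, so the values of single members are uncertain, and cross-hybridization was not tested. Of 40 cancer-testis genes, 3 rose and 6 fell. MAGEC2 rose by 1.56 and MAGEB2 by 1.42, and MAGEC2 had a G10 mean of 5.13.

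In the list of invasive and dedifferentiated melanoma state, 2 of 30 were higher (6.67%, beside 4.95% of all genes) and 3 lower (10.0%, beside 2.99%). WNT5A, a noncanonical Wnt ligand, measured 6.05, 5.62, 6.07 and 6.49 in A7, 7.79, 7.37, 7.86 and 7.78 in A375 and 6.91, 7.88, 8.79 and 6.67 in PCDNA3, a fall of 1.57 (standard error 0.29, adjusted p = 0.00405). The receptor kinase AXL fell by 0.66 and FLRT3 by 1.02, and EGFR rose by 0.80. Of 40 inflammatory cytokines and chemokines, 2 rose (5.0%) and 3 were lower (7.5%). IL7 rose by at least 0.87 (measured 2.07), and its G10 mean of 6.06 was close to the A7 mean of 6.03. LIF fell by 0.67, and TNFAIP6 fell by 1.03. Of 39 interferon response genes, 7 rose (17.9%, beside 4.95% of all genes), IFI6 by 0.77 and USP18 by 0.57, and BST2 fell by 0.68. Of 39 angiogenic factors, 1 rose and 4 were lower (10.3%, beside 2.99% of all genes), and ANGPT1 fell by 1.09. In the study's sprouting angiogenesis term, chosen on these arrays, 5 of 18 fell.

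Of 52 DNA replication genes none passed in limma, with a median difference of -0.16, and of 56 genes of G2 and mitosis 2 fell (KIF15 by 0.63 and CCNB2 by 0.49), with a median of -0.30, 53 negative differences and 22 lower genes at an unadjusted p under 0.05. Of 82 respiratory chain genes 3 rose and 1 fell, of 67 cytosolic ribosomal protein genes 1 rose, and of 10 MHC class II genes and 10 metallothioneins none passed in limma. At an unadjusted p under 0.05, 0 replication genes were higher and 6 lower, 1 MHC class II gene was higher and 2 were lower, and no metallothionein was either. Of all 33297 clusters, 2934 were higher and 2745 lower at that unadjusted limit. Of 37 apoptosis regulators, 4 rose (10.8%, beside 4.95% of all genes). Among them were the death receptor TNFRSF10B (0.58) and the mitophagy receptor BNIP3L (0.66), both on chromosome 8. Of 176 small nucleolar RNA genes, 1 was lower and 4 rose, all 4 of the SNORD116 family of chromosome 15, whose copies are alike in sequence, so that single members are uncertain. Markers of other cell types were looked at in the same way. Among 10 keratinocyte and 10 endothelial genes none was called in limma, also at an unadjusted p under 0.05. Of the 10 endothelial genes 3 lay above the unexpressed level, of the 10 keratinocyte genes 6 and of the 13 leukocyte genes 6, while the defining endothelial markers PECAM1 (4.10 in A7) and CDH5 (4.50) and the leukocyte marker PTPRC (3.14) lay below the unexpressed level. Of 13 leukocyte genes only LYZ was called, with both means below that level. Of 13 fibroblast genes 2 rose and 1 fell, and of 10 glial genes 2 fell.

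**Figure D4:**
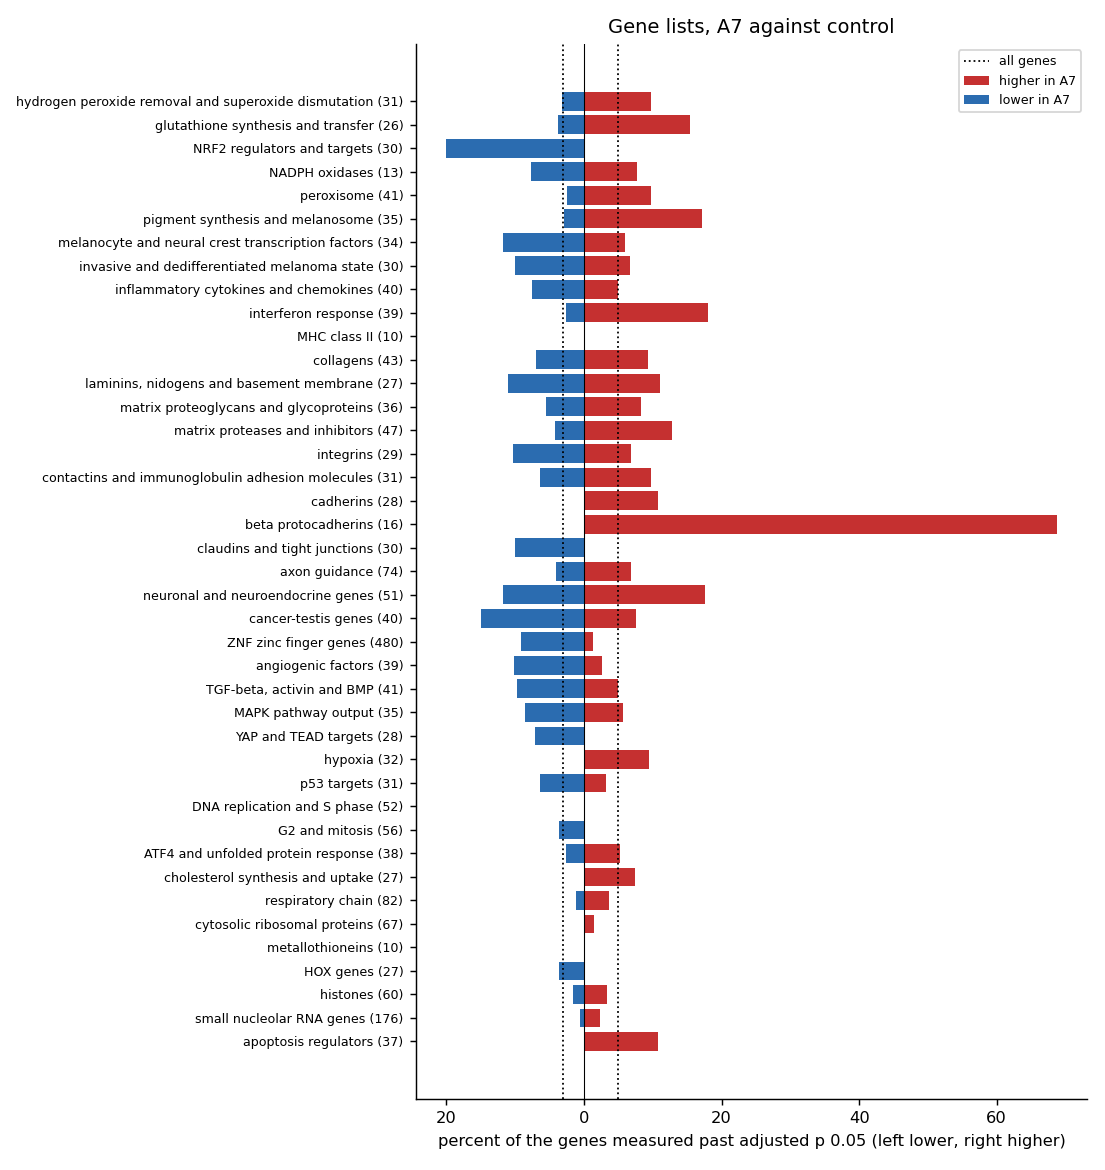
Percent of the genes measured in each of 41 lists (number in brackets) that were higher (right, red) or lower (left, blue) in A7 at an adjusted p under 0.05. Dotted lines mark the shares over all genes with a cluster of their own, 4.95% higher and 2.99% lower, and the beta protocadherins and the NRF2 list extend farthest to each side.

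The genes called in A7 were unevenly placed on chromosomes, a pattern examined after the values were seen and therefore given as counts. On chromosome 8, 94 of 639 genes were higher (14.7%) and 108 lower (16.9%), beside 4.61% and 2.49% on all other chromosomes placed. The directions split at HGSNAT. From the first gene to HGSNAT, which lies near the centromere on the short arm, 85 of 234 genes were higher (36.3%) and 1 lower, the immediate-early gene EGR3. After HGSNAT, 9 of 405 were higher and 107 lower (26.4%). Over the 170 genes of the first part that were above the unexpressed level, the median difference from the control mean was 0.37, 0.41, 0.30 and 0.31 in the 4 A7 arrays and between -0.03 and 0.02 in the 8 control arrays. Over 305 such genes of the second part it was -0.26, -0.30, -0.30 and -0.33 in A7 and between -0.03 and 0.04 in control. Over the 13160 genes of the other chromosomes it was between 0.00 and 0.02 in the A7 arrays. In G10 the medians were 0.05 to 0.13 in the first part and 0.00 to 0.12 in the second.

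**Figure D5:**
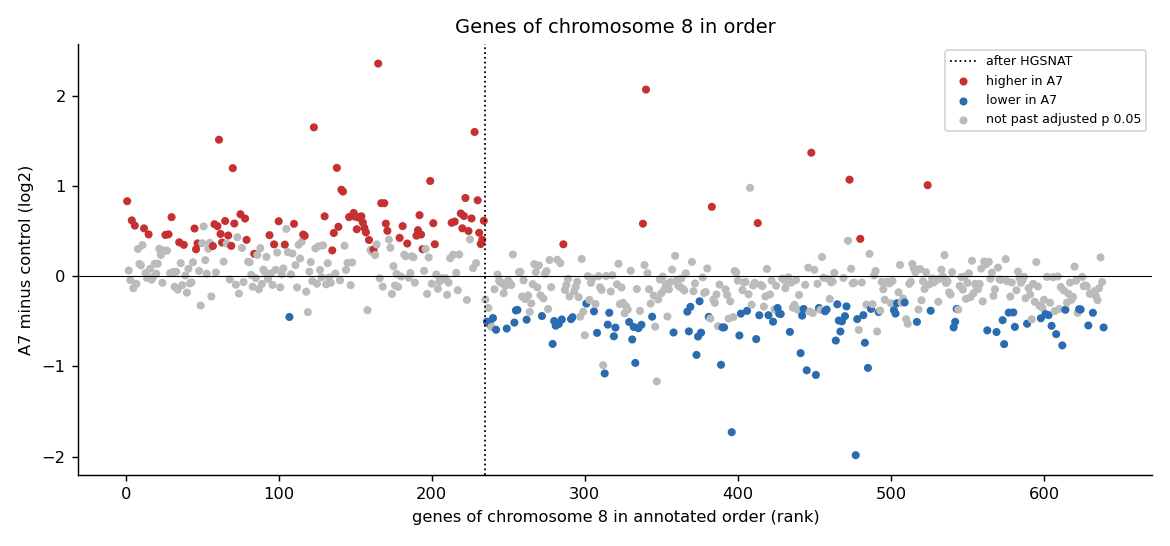
Difference between A7 and control (log2, vertical) for the 639 genes of chromosome 8 in annotated order (rank, horizontal), with 1 point per gene and colours for genes past the adjusted p of 0.05. Higher genes lie almost all to the left of the dotted line after HGSNAT and lower genes almost all to its right.

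Neighbouring genes of chromosome 8 were called together. The longest run held 9 genes, from FBXO16 over FZD3, EXTL3, INTS9, HMBOX1, KIF13B, DUSP4 and SARAF to LEPROTL1, all higher. Runs of 5, from LSM1 to NSD3 and from RNF170 to HGSNAT, were higher too, and a run of 5 from TRPS1 to AARD was lower. The genes named above that follow their side of chromosome 8 are MSRA, GSR, EPHX2, NEFL, CHRNA6, DUSP4, TNFRSF10B and BNIP3L among the higher, and SNAI2, MMP16, ANGPT1, TP53INP1 and PEX2 among the lower. IL7 went against its side, as did EGR3 and TNFRSF11B, which was called higher with both means below the unexpressed level. Without the clusters of chromosome 8 genes, 1022 clusters were higher and 591 lower. Smaller excesses were seen elsewhere, with 10.1% of 694 genes higher on chromosome X, 9.71% of 783 on chromosome 5, 8.04% of 833 lower on chromosome 7 and 6.92% of 535 lower on chromosome 20. Copy number was not measured, and its part in these differences was not tested.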

How the data were processed

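RNA of A375, PCDNA3, A7 and G10 cells was measured with 4 Affymetrix Human Gene 1.0 ST arrays per line. Per the labels and methods, RMA was the authors' procedure for background, normalization and probe summary. Their deposited table holds log2 intensities for 33297 transcript clusters, which were used unchanged. For RMA and for the authors' limma, the version is not given in the sources used. Of the clusters, 19460 carried 1 gene symbol in the array annotation, updated through RefSeq, 1754 several and 12083 none. Genes were named from clusters with 1 symbol, and of a gene with several clusters the brightest was used. Precision is limited by the number of arrays. Nothing in the labels ties replicates to separate cultures beyond the words biological replicate.

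In R 4.3.3 with limma 3.58.1, 1 mean per group was fitted to all 16 arrays, and eBayes gave 3.57 prior degrees of freedom. A7 was compared with the average of both control means, with Benjamini-Hochberg adjustment over all clusters. Python 3.11.15, pandas 2.3.3, SciPy 1.17.1 and matplotlib 3.10.9 served for tables, the permutation test and plots. The unexpressed level came from 379 olfactory receptor clusters (median 3.49). Lists were described by counts and medians without a set test. Named genes were CAT, genes the study named for A7, the 15 largest rises and 15 largest falls of at least 1 log2 unit with adjusted p under 0.001 and no overlap of arrays, and up to 4 members per list and direction. COL1A1, NQO1, TXNRD1, MAOA, NEFL, CHRNA6, CPE, SYK, GPR143, HPS4, MITF, SOX10, PMEL, S100B, the other beta protocadherins, the markers of other cell types and the genes of neighbouring runs fall outside that rule and were chosen after their values were seen. The genes and lists were chosen with earlier results of these data known. Chromosomes and gene order follow RefSeq (GRCh38.p14). The fit was checked on simulated arrays. The alternatives were A375 or PCDNA3 alone as control, only the 12 arrays compared, quantile normalization, median centring, only expressed clusters, only clusters with 1 symbol, a replicate block, array weights, robust variances, limma-trend, unadjusted p and leaving out each array. Gene lists were also counted after averaging the clusters of each gene. Removal of chromosome 8 genes was added after seeing the data.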

Additional observations from a re-analysis of the deposited data

Results flagged for a closer look

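In 28 of 579 groups of 4 arrays examined for the named genes, 1 array stood apart from the other 3, by a gap that chance gives in about 1 group of 20. In A7, 1 array was high for PCDHB5 (9.67, next 9.38), PSPH (9.74, next 9.64) and SNORD116-22 (6.48, next 5.61). In A7, 1 array was low for NCF4 (3.78, next 4.16), PLAUR (7.41, next 7.73) and TES (7.70, next 7.79). In A375, 1 array was high for CAT (9.03, next 8.65), CNTN1 (4.39, next 4.01), MAOB (6.05, next 5.57), SC5D (8.96, next 8.82) and ZNF83 (6.55, next 6.39). In A375, 1 array was low for COL4A4 (5.50, next 5.77), LAMB3 (5.79, next 6.25), MAGEB2 (8.19, next 8.62), NCAM1 (7.96, next 8.28), SEMA7A (7.85, next 8.18), SNORD116-28 (4.41, next 4.87) and WNT5A (7.37, next 7.78). In PCDNA3, 1 array was high for ACAN (8.54, next 7.60), CAT (8.71, next 8.53), GAP43 (7.18, next 6.60), SOX9 (8.59, next 8.22) and UCHL1 (7.56, next 7.03). In PCDNA3, 1 array was low for CES5A (4.25, next 4.74), MSRB3 (6.70, next 6.77), PAGE2B (6.87, next 7.25), PCDHB5 (7.61, next 8.21) and SEMA5A (7.40, next 7.84). 

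For 4 named genes the change in A7 differed between the control lines, because PCDNA3 differed from A375 at an adjusted p under 0.05 in limma. CLDN22 was higher in PCDNA3 than in A375 (PCDNA3 minus A375 1.05), and its A7 difference was -0.12 against A375 and -1.17 against PCDNA3, with the A7 and control means both below the unexpressed level. MAGEA10 was higher in PCDNA3 than in A375 (PCDNA3 minus A375 0.76), and its A7 difference was 0.80 against A375 and 0.04 against PCDNA3. SLITRK4 was lower in PCDNA3 than in A375 (PCDNA3 minus A375 -0.96), and its A7 difference was 0.11 against A375 and 1.07 against PCDNA3. TYRP1 was higher in PCDNA3 than in A375 (PCDNA3 minus A375 1.28), and its A7 difference was 2.99 against A375 and 1.71 against PCDNA3.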

How the results depend on the processing

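The counts of clusters higher and lower in A7 moved by over 1.5 times in few of the settings tried. Array weights gave 1178 clusters lower in A7, and an unadjusted p under 0.05 gave 2934 higher and 2745 lower. Leaving out 1 array at a time gave 656 to 1280 clusters higher and 417 to 840 lower, and at 1 log2 unit 104 to 144 higher and 26 to 41 lower. The difference in CAT was 0.34 to 0.42 in those fits and passed the limit without replicate 3 of G10 (adjusted p = 0.0216). It also passed with only the 12 arrays compared (0.37, adjusted p = 0.0207) and with array weights (0.39, adjusted p = 0.0256), and over all alternatives its adjusted p ranged from 0.0207 to 0.368. MTSS1, which the study's discussion described as increased in A7, had a difference of -0.18 and was not called in limma (adjusted p = 0.699). Its difference changed sign against PCDNA3 alone (0.24). Of 184 named genes that were called, 96 were called in each of 28 fits of the alternatives in which their cluster was tested, and none of the 184 changed sign. Lost calls are not all marked where the gene is named. FST lost its call in 9 of 28 fits, MGST1 and USP18 in 8 of 28, IGFBP3 in 5 of 28 and PEX2 in 4 of 27. Most calls were lost without replicate 1 of A7 (62 genes), without replicate 2 (53), without replicate 3 (49) and with A375 alone as control (49). These fits hold fewer A7 or control arrays, and the cause was not tested further.

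The replicate numbers that the labels share between lines did not pair the arrays, since deviations of same-numbered arrays correlated at -0.16 to 0.23, above 0.1 in 3 of 24 pairs, and 5 of 16 arrays correlated best with their own number. With a replicate block, 1066 clusters were higher and 685 lower, at 1 log2 unit 129 were higher and 38 lower, and CAT differed by 0.37 (adjusted p = 0.143), so that no count moved by over 1.5 times and 20 of the 184 named calls were lost.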

Other observations

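Some lists were not described above. Their shares stand beside 4.95% higher and 2.99% lower of all genes. Of 41 genes of TGF-beta, activin and BMP signalling, 2 rose (4.88%) and 4 fell (9.76%) in A7. The activin antagonist FST fell by 1.02, BMP2 by 0.69 and the receptor BMPR1B by at least 0.48 (measured -0.58), while the receptor TGFBR1 rose by 0.52. Of 32 hypoxia genes, 3 rose (9.38%), among them the glucose transporter SLC2A1 (0.42). Of 27 cholesterol genes, 2 rose (7.41%), HMGCS1 by 0.34 and SC5D by 0.45, each a call lost in 9 of 28 alternatives. In the MAPK output list of 35 genes, 2 rose (5.71%) and 3 fell (8.57%), with the antagonist SPRY1 higher by 0.73 and EGR3 lower by 0.45. Of 31 p53 targets 1 rose (3.23%) and 2 fell (6.45%), and of 28 YAP and TEAD targets 2 fell (7.14%), IGFBP3 by 0.74 and AXL. Of 60 histone genes 2 rose (3.33%) and 1 fell (1.67%), H2BC12 by 1.06 upward and the linker histone H1-5 by 0.83 downward. Of 38 genes of ATF4 and the unfolded protein response, SLC7A5 (0.46) and PSPH (0.37) rose and ASNS fell by 0.41. The call of PSPH was lost in 12 of 28 alternatives.

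The share of genes called varied with their level. It was 2.00% higher and 1.17% lower among the 4855 genes whose brighter side was below the unexpressed level, and 6.75% higher and 3.96% lower among the 3513 genes whose brighter side was above 9.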
